A study of Homo sapiens with 6 samples.

Results

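The B lineage transcription factors are DNA-binding proteins, and 1 coactivator, that commit blood progenitors to the B cell fate and set the stage of the cell. The set is a fixed list of 10 genes, PAX5, EBF1, IKZF1, IKZF3, TCF3, POU2AF1, BACH2, BCL6, LEF1 and PRDM1, chosen by name and found as 10 of the 26485 entries of the count table. Of these, 9 passed the filter on low counts, which left 11454 genes for testing. IKZF3 was the member that did not pass, and PRDM1 passed only through its counts in treated cells.

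In B cell development the E protein TCF3 and then EBF1 open the B cell programme, and PAX5 fixes it by switching on genes of the pre-B cell receptor and silencing those of other lineages. Ikaros (IKZF1) and Aiolos (IKZF3) end the proliferation of large pre-B cells. BACH2 and BCL6 hold cells in B cell stages by repressing PRDM1, which encodes BLIMP1, the factor that drives plasma cell formation. Lesions of PAX5, EBF1, IKZF1 and TCF3 are known in B-precursor leukemia. The stage at which the cells are blocked was not measured here.

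RNA was sequenced from REH, an established human line of B-precursor acute lymphoblastic leukemia known for the ETV6-RUNX1 fusion, after 24 h with 25 µM ML141, an inhibitor of the GTPase CDC42, or with DMSO, its solvent. Each group had 3 libraries, described by the submitters as independent experiments, and every library came from the same line, dose and time. Total counts were 8284299 to 10837224 in the DMSO libraries and 10436147 to 12308039 in the ML141 libraries. One inhibitor at 1 concentration was used, so action through CDC42 and other actions of the compound cannot be told apart.

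The label of a B-precursor line was checked against marker genes. Of 12 markers of B cell precursors 11 passed the filter, with a summed level of 6431 to 7074 CPM (counts scaled to a common library size) in DMSO and 7804 to 8026 CPM in ML141. By the test used throughout, 7 of them were higher and 1 lower with ML141 (2 lower without ML141 replicate 1). Of all tested genes 26.7% were higher and 27.7% lower. CD9 is among the 7, on 28 counts in DMSO and 198 in ML141. The DMSO counts of CD9 alone did not meet the low-count filter. It entered the test through its treated libraries, where it was higher, so its call is not separate from the filter. VPREB1, a surrogate light chain gene on this list, had 1 count in the 6 libraries together. Among T and NK cell markers 0 of 9 passed the filter, their sum was 0.778 to 1.14 CPM in DMSO and 0.926 to 1.55 CPM in ML141, and CD3D, CD3G, CD2, GNLY and KLRD1 had no count. None of 8 erythroid and megakaryocyte markers passed, with at most 0.463 CPM in sum. Of 9 myeloid markers 3 passed, with 49.1 to 50.3 CPM in sum in DMSO and 32.7 to 36.3 CPM in ML141. MPO, the myeloperoxidase gene, made up most of that sum and was lower, at 41.4 ± 0.36 against 26.2 ± 1.38 CPM (SD, n = 3).

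The stretches just before the transcription start are shown for PAX5 and EBF1, which rose with ML141, for IKZF1, which fell, and for PRDM1, which had few counts in DMSO and more in ML141. They come from RefSeq (GRCh38.p14), where 8 of the 10 members had an entry, with 12 starts in all. POU2AF1 and IKZF3 were not among them. Each line runs 5′ to 3′ on the gene's own strand through at most 250 bases before the first listed start, without bases that GENCODE 29 annotates as exon. Capitals mark matches to CANNTG (E-box, the type of site bound by TCF3), TGGGAA (Ikaros core), TCCC and GGGA parted by 2 bases (EBF1), ATGCAAAT (octamer, the site at which POU2AF1 acts) and CTTTGA (LEF1 core), on either strand.
PAX5, chr9:37034269-37034518, minus strand: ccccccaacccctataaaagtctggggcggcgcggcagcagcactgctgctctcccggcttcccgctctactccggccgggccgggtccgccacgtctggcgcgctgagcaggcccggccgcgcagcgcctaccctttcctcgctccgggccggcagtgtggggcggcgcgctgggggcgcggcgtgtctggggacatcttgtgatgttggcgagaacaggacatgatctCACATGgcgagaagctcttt
EBF1, chr5:159097957-159098206, minus strand: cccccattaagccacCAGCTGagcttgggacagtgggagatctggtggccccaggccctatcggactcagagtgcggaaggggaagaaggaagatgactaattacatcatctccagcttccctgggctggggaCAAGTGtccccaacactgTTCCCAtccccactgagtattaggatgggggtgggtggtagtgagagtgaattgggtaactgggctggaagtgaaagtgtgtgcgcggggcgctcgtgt
IKZF1, chr7:50304466-50304668, plus strand: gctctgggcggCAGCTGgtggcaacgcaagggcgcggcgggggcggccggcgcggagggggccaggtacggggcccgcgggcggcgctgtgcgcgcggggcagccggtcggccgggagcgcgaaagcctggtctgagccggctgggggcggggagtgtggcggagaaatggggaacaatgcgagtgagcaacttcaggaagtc
PRDM1, chr6:106086086-106086319, plus strand: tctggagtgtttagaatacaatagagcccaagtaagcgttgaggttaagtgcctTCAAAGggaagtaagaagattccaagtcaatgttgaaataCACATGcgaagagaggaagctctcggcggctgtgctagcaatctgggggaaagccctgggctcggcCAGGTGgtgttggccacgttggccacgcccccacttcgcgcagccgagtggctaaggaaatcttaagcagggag
The PAX5 stretch held 1 E-box, 20 bases before the start. The EBF1 stretch held E-boxes at 235 and 117 bases and an Ikaros core, read on the other strand, at 99 bases before the start. In PRDM1 a LEF1 core lay at 196 bases and E-boxes at 156 and 90 bases. The IKZF1 stretch held 1 E-box at 239 bases, and an Ikaros core at 32 bases lay in the annotated exon that is not printed.

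Over the 12 windows of 250 bases, E-boxes were found in 8, the Ikaros core in 3 and the LEF1 core in 3. In LEF1 the letters of an E-box and an Ikaros core overlapped. The EBF1 and octamer letters were in 0 of the 12. Among 35114 windows of the same length before all RefSeq starts, 61.8% held an E-box, 20.8% the Ikaros core, 11.2% the LEF1 core, 1.63% the octamer and 1.06% the EBF1 letters. These matches are letters in a sequence, and no binding was measured.

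The level of most members differed between ML141 and DMSO, in both directions. PAX5, POU2AF1, TCF3, BACH2 and EBF1 rose by 1.26 to 1.67-fold, PRDM1 rose from near 0, and IKZF1 and BCL6 fell 1.84-fold and 1.46-fold. In all, 8 of the 9 tested members passed edgeR's quasi-likelihood test at an adjusted p of 0.05 (Benjamini-Hochberg over all genes tested), 6 higher and 2 lower. Without PRDM1, whose passing of the filter already required a difference, these were 7 of 8, with 5 higher and 2 lower. The background was high: 54.4% of all tested genes passed, 26.7% higher and 27.7% lower. Of the genes that passed 49.1% were higher, a share that was 59.5% with upper-quartile factors and 66.1% with library totals. The DMSO and ML141 libraries did not overlap in any of the 9 tested members, or of the 8 without PRDM1. Among all tested genes 61.2% had no overlap. The median log2 fold change of the 9 was 0.44 (0.39 without PRDM1), beside 0.02 for all tested genes, and these shares and medians are given as a description only. In bulk RNA, fewer cells of a type and less RNA per cell cannot be told apart.

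**Figure D1:**
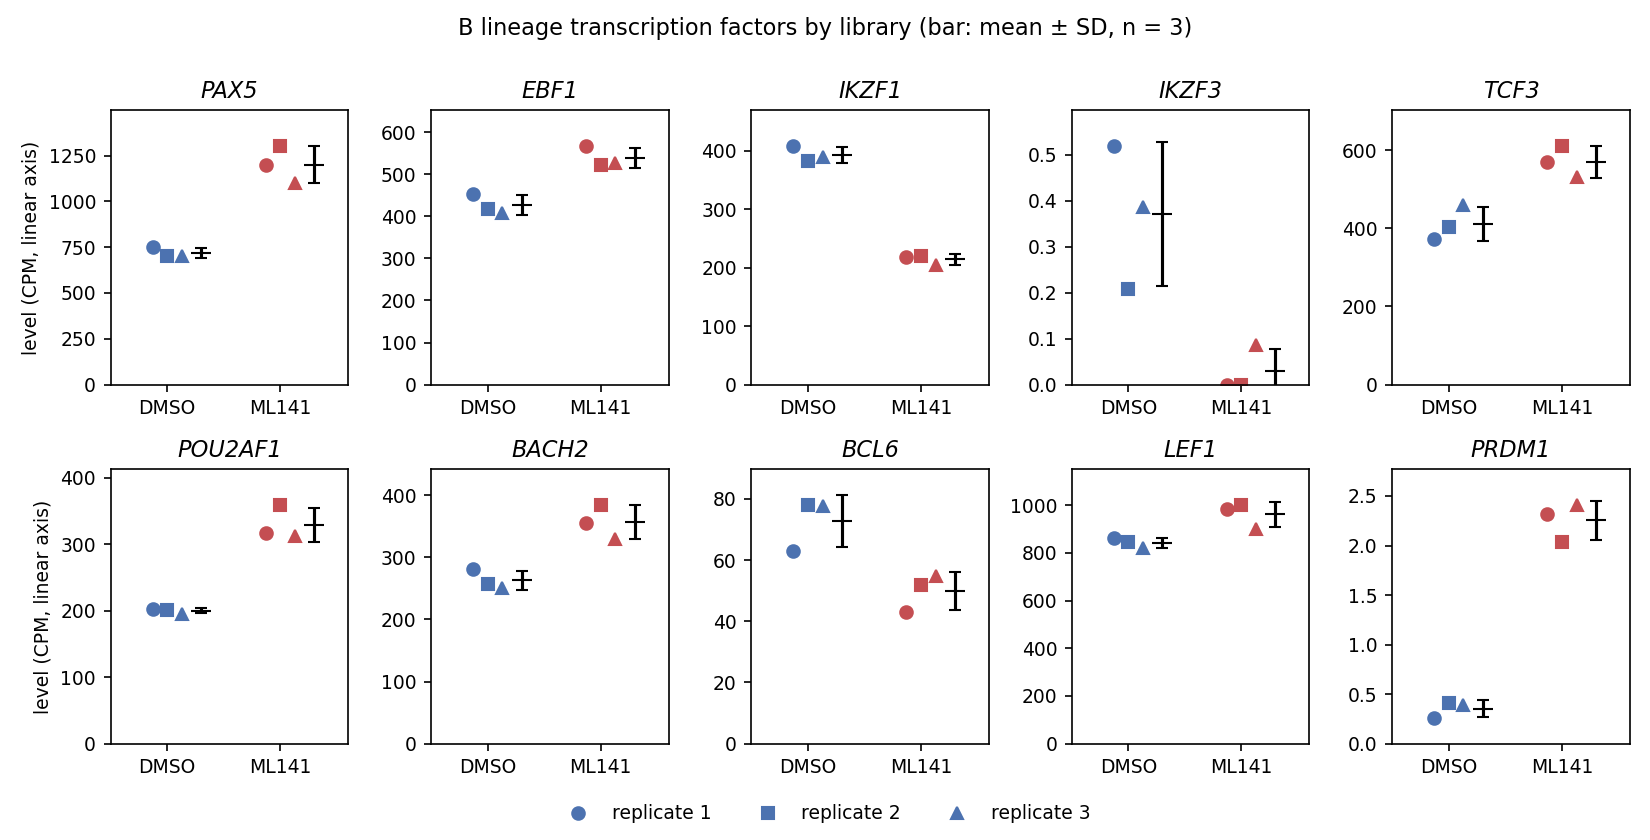
Level of each B lineage transcription factor in every library, in CPM on linear axes that start at 0, with blue for DMSO, red for ML141, a symbol per replicate number and the mean ± SD of 3 libraries in black. The groups do not overlap in any of the 9 tested members, and IKZF3 and PRDM1 lie below 1 CPM in every DMSO library.

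Of the 3 commitment factors, PAX5 showed the largest change. PAX5 (chromosome 9, 36833275 to 37034185, minus strand) encodes the paired-domain factor that keeps cells in the B lineage. Its level was 751, 699 and 705 CPM in DMSO replicates 1, 2 and 3 and 1201, 1302 and 1100 CPM in ML141 replicates 1, 2 and 3. Every ML141 library was above every DMSO library, and the smallest difference between a library of each group was 0.55 on the log2 scale. The log2 fold change was 0.74 (SE 0.085, edgeR adjusted p = 2.03e-05, n = 3 per group), and 23.5% of tested genes changed by more in either direction. PAX5 was also one of the most abundant mRNAs by count, since 0.629% of tested genes had a higher mean CPM.

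EBF1 (chromosome 5, 158695916 to 159099761, minus strand) encodes the early B cell factor that acts with TCF3 to turn on PAX5. It measured 453, 418 and 408 CPM in the DMSO libraries and 567, 523 and 528 CPM in the ML141 libraries. The groups were apart, but the step was small: the log2 fold change was 0.34 (SE 0.078, edgeR adjusted p = 0.00302), and 55.3% of tested genes changed by more. TCF3 (chromosome 19, 1609290 to 1652605, minus strand) encodes basic helix-loop-helix E proteins that start the B cell programme. It measured 372, 402 and 459 CPM in DMSO and 568, 610.1 and 530.1 CPM in ML141. DMSO replicate 1 was the lowest library and DMSO replicate 3 stood 0.21 on the log2 scale below the lowest ML141 library. The log2 fold change of TCF3 was 0.47 (SE 0.094, edgeR adjusted p = 0.00118).

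PAX5 was also read against EBF1 in the same library. The log2 ratio of their counts, which does not depend on library scaling, was 0.73, 0.74 and 0.79 in the DMSO libraries. In the ML141 libraries it was 1.08, 1.32 and 1.06, so the groups did not overlap. The difference was 0.40, with a 2-sided exact permutation p of 0.1 (0.1 adjusted over the 4 ratios computed), the smallest p that 3 against 3 can give.

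The genes of the Ikaros family did not change together. IKZF1 (chromosome 7, 50304068 to 50405101, plus strand) encodes Ikaros, a zinc finger repressor that is often deleted in B-precursor leukemia. It measured 408, 382 and 389 CPM in DMSO and 218, 221 and 204 CPM in ML141. These were tight groups, and the library pair closest to each other still differed by 0.79 on the log2 scale. The log2 fold change was -0.88 (SE 0.075, edgeR adjusted p = 2.26e-06), the smallest p among the members, and 17.4% of tested genes changed by more.

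IKZF3 (chromosome 17, 39757715 to 39864188, minus strand) encodes Aiolos, the family member that normally appears as pre-B cells mature. It had 4, 2 and 4 counts in the DMSO libraries and 0, 0 and 1 in the ML141 libraries. The ratio of summed counts, 10 against 1 and scaled for library size, was 12.9-fold lower with ML141, and its 95% interval from counting error alone (Clopper-Pearson) ran from 1.83 to 558. A count of 0 allows up to 3 counts, which is 0.278 CPM in ML141 replicate 1 and 0.226 CPM in ML141 replicate 2, so the size of the difference was poorly bounded. With no filter on low counts the fitted difference of IKZF3 was -3.21 on the log2 scale (SE 1.16, edgeR adjusted p = 0.0219 over 16703 genes). The authors' deposited table gives it -3.61 with an unadjusted p of 0.0307 and no adjusted p. The ratio of IKZF1 to IKZF3 in a library moves with single counts of IKZF3. It was 9.45 to 10.5 in DMSO and 10.6 to 12.5 in ML141 on the log2 scale with 0.5 added to each count, a difference of 1.85 (exact permutation p = 0.1, 0.1 adjusted over the 4 ratios). With 1 added it was 1.24.

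The other Ikaros genes were read from the list of family members and partners. IKZF2, which encodes Helios, measured 140.9 ± 27.9 CPM in DMSO and 372 ± 80.6 CPM in ML141. That rise was 1.40 on the log2 scale (SE 0.159, edgeR adjusted p = 1.83e-05). IKZF1 and IKZF2 therefore moved in opposite directions in these libraries, and with library totals in place of TMM scaling both directions held. IKZF4 (log2 fold change -0.03, edgeR adjusted p = 0.887) and IKZF5 (0.21, edgeR adjusted p = 0.0778) did not pass the test. Over all tested genes 26.7% were higher and 27.7% lower. Of the 10 tested genes on this list 1 was higher and 5 were lower, with a median of -0.22. With upper-quartile factors or library totals 2 were higher and 2 lower. Of all 11454 tested genes, 3843 were higher and 2611 lower with upper-quartile factors. With library totals 4494 were higher and 2302 lower. The number lower was 2 without DMSO replicate 2 and 3 without ML141 replicate 3, and the number higher was 2 with the replicate block or without ML141 replicate 2. CHD4, the remodelling ATPase of the NuRD complex that Ikaros recruits, fell 1.58-fold from 612 ± 37.4 CPM. The deacetylase gene HDAC1 fell 1.39-fold from 261 ± 14.2 CPM. CHD4 shares 86% of its exon bases with AC006064.6 on the same strand, so its reads are not certain to be its own.

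POU2AF1 and LEF1 were read next. POU2AF1 (chromosome 11, 111352252 to 111455630, minus strand) encodes the coactivator that B cells use with octamer-binding factors. Its level was 203, 201 and 195 CPM in DMSO and 317, 359 and 312 CPM in ML141. The DMSO libraries lay close together and every ML141 library was at least 0.62 higher on the log2 scale. The log2 fold change was 0.72 (SE 0.080, edgeR adjusted p = 1.60e-05), close to that of PAX5. Its partners went apart: POU2F1, the ubiquitous octamer factor, fell 1.63-fold from 194 ± 11.2 CPM, and POU2F2, the lymphoid one, rose 2.14-fold from 1.36 ± 0.40 CPM. The rise of POU2F2 rests on 38 against 104 counts and did not pass the test without DMSO replicate 2 (edgeR adjusted p = 0.0687) or ML141 replicate 3 (0.0573).

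LEF1 (chromosome 4, 108047545 to 108168956, minus strand) encodes the HMG-box factor that carries WNT signals to DNA and is active in pro-B and pre-B cells. It measured 863, 843.5 and 819.7 CPM in DMSO and 985, 1000 and 902 CPM in ML141. The groups did not overlap, yet the nearest libraries differed by 0.06 on the log2 scale. The log2 fold change of 0.19 (SE 0.077) did not pass the test (edgeR adjusted p = 0.0523), and the authors' deposited table gives an adjusted p of 0.0595. LEF1 passed under 7 of the 8 other scalings, filters and models and without ML141 replicate 3, but not with DESeq2 size factors or without any other single library. With the replicate block its edgeR adjusted p was 0.0193. Same-numbered libraries of both groups share a name part in the submitters' descriptions, whose meaning is not stated. The adjusted p of LEF1 ranged from 0.00119 to 0.16 over these alternatives, and its fold change was positive in each.

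The 3 remaining members control the exit to plasma cells. BACH2 (chromosome 6, 89926529 to 90296908, minus strand) encodes a bZIP repressor of PRDM1. It measured 281, 257.5 and 251 CPM in DMSO and 356, 384 and 329 CPM in ML141, with no overlap. Its log2 fold change was 0.44 (SE 0.084, edgeR adjusted p = 9.25e-04). BCL6 (chromosome 3, 187721377 to 187745727, minus strand) encodes the zinc finger repressor that protects pre-B and germinal centre B cells. It measured 62.9, 77.9 and 77.5 CPM in DMSO and 43.0, 51.8 and 54.8 CPM in ML141. Replicate 1 was the lowest library of both groups, and the DMSO library nearest to an ML141 library was 0.20 above it on the log2 scale. The log2 fold change of BCL6 was -0.55 (SE 0.119, edgeR adjusted p = 0.00214), so the repressors BACH2 and BCL6 moved in opposite directions.

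PRDM1 (chromosome 6, 106086320 to 106109939, plus strand) had 2, 4 and 4 counts in the DMSO libraries and 25, 27 and 28 counts in the ML141 libraries. Scaled, this was 0.259 to 0.414 CPM against 2.04 to 2.41 CPM. The DMSO libraries stood near the limit of detection and each ML141 library was far above them. The ratio of summed counts, 80 against 10, was 6.22, and its 95% interval (Clopper-Pearson) ran from 3.21 to 13.5. The fitted log2 fold change was 2.60 (SE 0.357, edgeR adjusted p = 8.09e-05). This p comes from a gene that entered the test only through its treated libraries. With no filter on low counts the log2 fold change was 2.62 (SE 0.438, edgeR adjusted p = 1.61e-06). Over the libraries of both groups together, 96.5% of all tested genes had a higher mean CPM than PRDM1. In ML141 alone its mean was 2.25 CPM. Under the stricter low-count filter PRDM1 was not tested.

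Counts of BACH2 and BCL6 were set against those of PRDM1 in the same library. The log2 ratio of BACH2 to PRDM1 was 9.11 to 9.76 in DMSO and 7.07 to 7.53 in ML141, a difference of -2.07. That of BCL6 to PRDM1 was 7.39 to 7.60 in DMSO and 4.19 to 4.64 in ML141, a difference of -3.05. Each pair of groups was separate, with an exact permutation p of 0.1, 0.1 adjusted over the 4 ratios. Both ratios divide by PRDM1, which had 10 counts in the DMSO libraries together, so they move with single counts of it. PRDM1 was already separate between the groups, so these ratios are not a further result. BACH2 itself rose, so its ratio fell through PRDM1 alone.

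Plasma cell markers were read beside PRDM1. Of 7 such genes 4 were tested, and 3 were higher and 1 lower, beside 26.7% higher and 27.7% lower among all tested genes. The sum was 224 to 238 CPM in DMSO and 283 to 362 CPM in ML141. SLAMF7 had no count, TNFRSF17 had 1 and JCHAIN had 4 over the 6 libraries. SDC1, the syndecan used to sort plasma cells, was detected and fell 3.54-fold, from 6.61 ± 1.37 to 1.84 ± 1.08 CPM. Nearly all of the marker sum came from 3 genes that B cells also express, and so did its rise. XBP1 rose from 188 ± 8.40 to 251 ± 49.0 CPM, MZB1 from 32.7 ± 1.02 to 58.0 ± 6.95 CPM and IRF4 from 2.61 ± 0.329 to 4.75 ± 0.588 CPM. The part of these genes in the PRDM1 result was not tested.

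**Figure D2:**
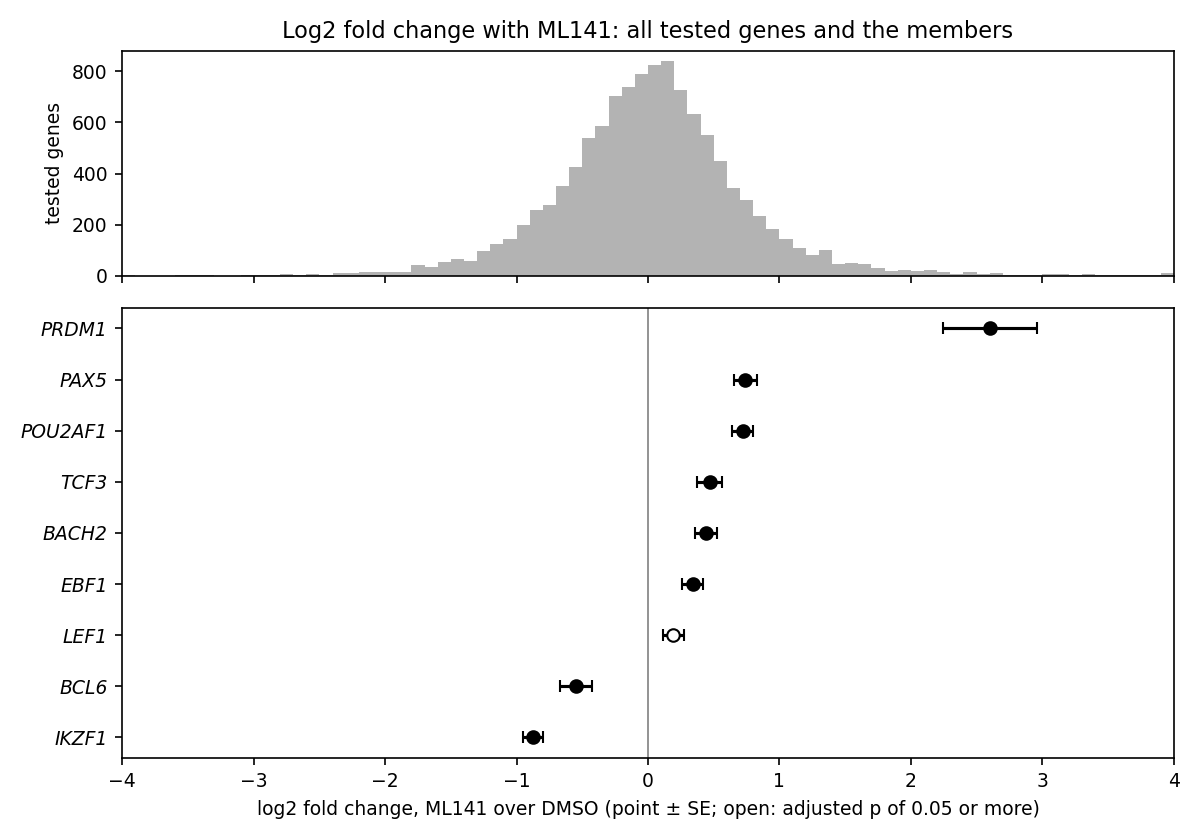
Top, number of tested genes by log2 fold change with ML141 in steps along the x axis, with values beyond 4 in either direction counted in the end bins. Bottom, fold change of the 9 tested members with its SE (filled, adjusted p under 0.05), where IKZF1 at -0.88 and BCL6 at -0.55 lie below 0 and PRDM1 at 2.60 lies far to the right.

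Levels of different genes were compared per kilobase of annotated exon. In DMSO LEF1 was highest at 200.8 ± 5.20 CPM per kilobase. PAX5 (83.4 ± 3.32), EBF1 (81.0 ± 4.43) and TCF3 (72.6 ± 7.80) followed, and EBF1 overlapped both of the other two. POU2AF1 (60.6 ± 1.19), IKZF1 (48.3 ± 1.67), BACH2 (28.4 ± 1.70) and BCL6 (17.97 ± 2.12) were each separate from their neighbours. PRDM1 and IKZF3, at 0.062 and 0.037 CPM per kilobase, overlapped each other. With ML141, IKZF1 (26.3 ± 1.08) stood below BACH2 (38.4 ± 2.95) without overlap, which is the reverse of their order in DMSO. PAX5 (139 ± 11.7) stood apart from EBF1 (102 ± 4.61), TCF3 (101 ± 7.07) and POU2AF1 (99.9 ± 7.74), which overlapped one another. Which transcript each gene used was not known. With the length of the longest transcript, a choice made after seeing the data, TCF3 came before PAX5 in DMSO with overlap and IKZF1 overlapped POU2AF1, while LEF1 stayed first and BACH2 again passed IKZF1 with ML141. With that length PAX5 no longer stood apart in ML141: its range overlapped that of TCF3 (128 ± 8.99), and TCF3 lay above EBF1 (102.7 ± 4.62) without overlap.

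**Figure D3:**
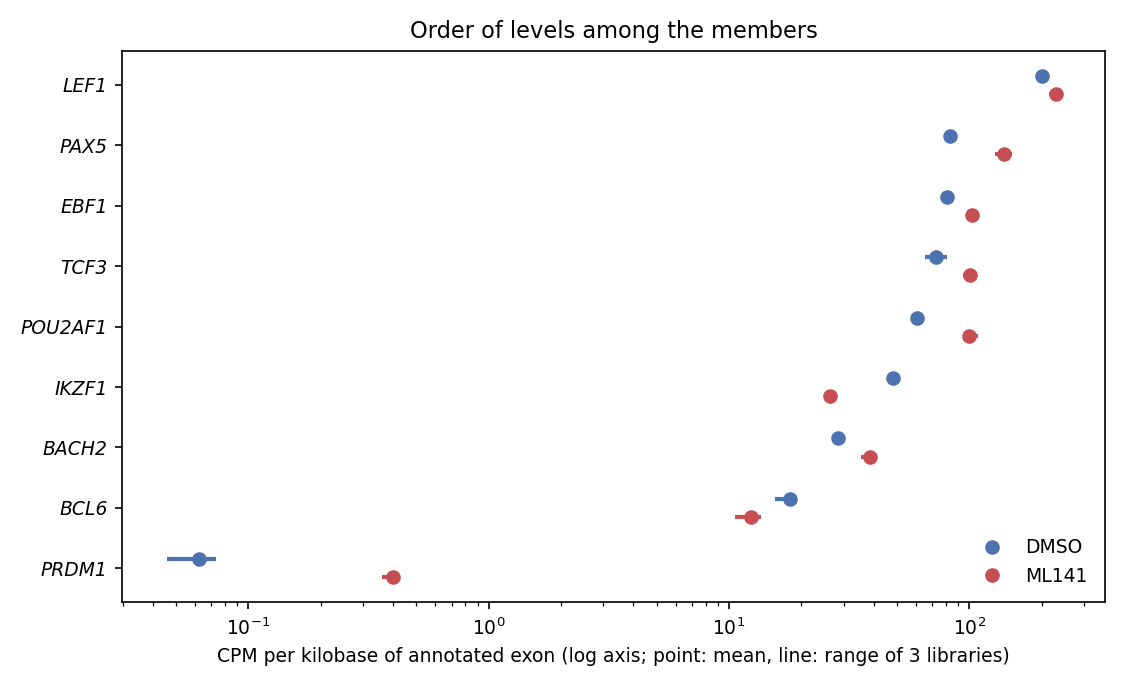
Level of each member per kilobase of annotated exon on a log axis, as the mean (point) and range (line) of 3 libraries, with IKZF3 left out because it had no count in 2 ML141 libraries. IKZF1 and BACH2 change places between DMSO (48.3 and 28.4) and ML141 (26.3 and 38.4).

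The order of libraries within a group was alike in many members but not in all. Of the 9 tested members, 6 (PAX5, EBF1, IKZF1, POU2AF1, BACH2 and LEF1) were highest in DMSO replicate 1 among the DMSO libraries. TCF3, BCL6 and PRDM1 were lowest there. In the ML141 group 6 (PAX5, IKZF1, TCF3, POU2AF1, BACH2 and LEF1) were highest in replicate 2 and lowest in replicate 3. BCL6 and PRDM1 were highest in ML141 replicate 3 and EBF1 in ML141 replicate 1. The values of a library share 1 scaling factor, so they are not independent. Leaving out any single library kept all 8 calls, with log2 fold changes of PAX5 and the 7 others on the same side of 0.

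Genes that EBF1 and PAX5 are known to activate were read from a list of 14. Of 11 tested, 8 were higher and 0 lower by edgeR, with a median of 0.49, and each of the 11 had a fold change above 0. These counts stand beside 26.7% higher and 27.7% lower among all tested genes and are a description only. CD79A, the signalling chain of the B cell receptor and a direct target of PAX5, rose 2.18-fold to 525 ± 69.6 CPM. FCRLA, an Fc receptor-like gene of B cells, rose 3.15-fold to 6.07 ± 1.12 CPM. Of 10 genes that PAX5 is known to silence 5 were tested, 1 was higher (2 without ML141 replicate 1) and 2 lower. The receptor kinase gene FLT3 rose 1.32-fold to 216 ± 18.2 CPM, the adhesion gene EMB fell 1.47-fold and SDC1 fell as given above.

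Among known repression targets of Ikaros, 6 of 9 were tested, 1 was higher (2 with library totals) and 2 lower. With library totals 4494 of all 11454 tested genes were higher, beside 3059 with TMM. The shares over all tested genes were 26.7% higher and 27.7% lower. IGLL1, a surrogate light chain gene, rose 1.48-fold from 192 ± 27.0 CPM, and its similarity to immunoglobulin lambda genes makes its reads less certain. MYC fell 1.56-fold from 286 ± 20.4 CPM. KIT, a stem cell factor receptor, fell from 3.98 ± 1.25 to 0.955 ± 0.364 CPM, 108 against 35 counts. The ML141 counts of KIT alone did not meet the low-count filter, so it entered the test through its DMSO libraries, where it was higher. IGLL1 is also on the list of genes activated by EBF1 and PAX5, and MYC on that of WNT targets, so both are counted again there.

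Among 10 tested genes repressed by BCL6, 4 were higher and 2 lower, with a median of 0.23, and with library totals 7 were higher. With TMM scaling 26.7% of all tested genes were higher and 27.7% lower. With library totals 4494 of the 11454 tested genes were higher, beside 3059 with TMM. CDKN1B, a cyclin-dependent kinase inhibitor, rose 1.83-fold to 70.9 ± 11.5 CPM and CD69, an early activation antigen, rose 2.66-fold to 11.9 ± 4.12 CPM. The checkpoint kinase genes CHEK1 and ATR fell 2.53-fold and 1.51-fold. Of 5 tested WNT targets 0 were higher and 4 lower by edgeR, with a median of -0.64, and each of the 5 had a fold change below 0. MYC is among the 4 and is itself that median. AXIN2, also among the 4, passed with an edgeR adjusted p of 0.0413. It shares 28.4% of its exon bases with AC004805.1 on the same strand. RNF43, which did not pass, shares 58.5% with AC004687.2 on the same strand. The reads of both are not certain to be their own. LGR5, a receptor for R-spondins, fell from 25.8 ± 2.83 to 8.74 ± 3.05 CPM and ZNRF3, a ligase that removes WNT receptors, from 26.7 ± 0.66 to 13.6 ± 0.94 CPM. TCF7, the relative of LEF1 that shares its sites, had 7 counts in all.

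E proteins, their inhibitors and their partners differed in direction. Of 6 tested genes of E proteins, ID inhibitors and their partners 4 were higher and 1 lower, with a median of 0.41. The shares over all tested genes were 26.7% higher and 27.7% lower. ID3, which blocks TCF3 by dimerizing with it, fell 4.57-fold from 49.1 ± 9.17 to 10.6 ± 4.78 CPM (-2.19 on the log2 scale, SE 0.250, edgeR adjusted p = 1.91e-05). ID2, another such inhibitor, rose 1.73-fold from 20.0 ± 1.21 CPM, and LYL1, a partner of E proteins in early blood cells, rose 1.89-fold. The other higher genes were TCF4 and TCF12, which encode E proteins, and LMO2 did not pass the test (-0.01 on the log2 scale). The summed level of the list was 530.5 to 569.7 CPM in DMSO and 674 to 781 CPM in ML141.

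Of 18 tested lymphoid and B cell factors outside the 10 members, 12 were higher and 2 lower, with a median of 0.49. Without ML141 replicate 1, 5 were lower. The shares over all tested genes in the main fit were 26.7% higher and 27.7% lower. RUNX1, whose exons the fusion mRNA of this line shares in large part, rose 1.64-fold to 439 ± 26.2 CPM. KLF2, a factor of lymphocyte quiescence, rose 5.94-fold from 33 counts to 254. Its DMSO counts alone did not meet the low-count filter, so it entered the test through its treated libraries, where it was higher. SPIB, an ETS factor of B cells, fell 1.97-fold from 28.5 ± 1.40 CPM, with 22.1% of its exon bases shared with AC020909.1 on the same strand. Of 12 tested corepressors and partners of BACH2, BCL6 and LEF1, 4 were higher and 2 lower, with a median of 0.09. TLE4, a Groucho corepressor, rose 1.66-fold and BCOR, which BCL6 recruits, 1.27-fold. MAFF, a small MAF protein of the type BACH2 pairs with, fell 2.28-fold on 88 against 49 counts. TLE3 fell 1.30-fold with overlapping groups. Its call was lost with upper-quartile factors (edgeR adjusted p = 0.132) and library totals (0.234). It was also lost on leaving out DMSO replicate 1 (0.075), DMSO replicate 2 (0.163), ML141 replicate 1 (0.0564) or ML141 replicate 3 (0.11). In these cases the list had 1 lower gene, except without DMSO replicate 1, where it had 3.

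**Figure D4:**
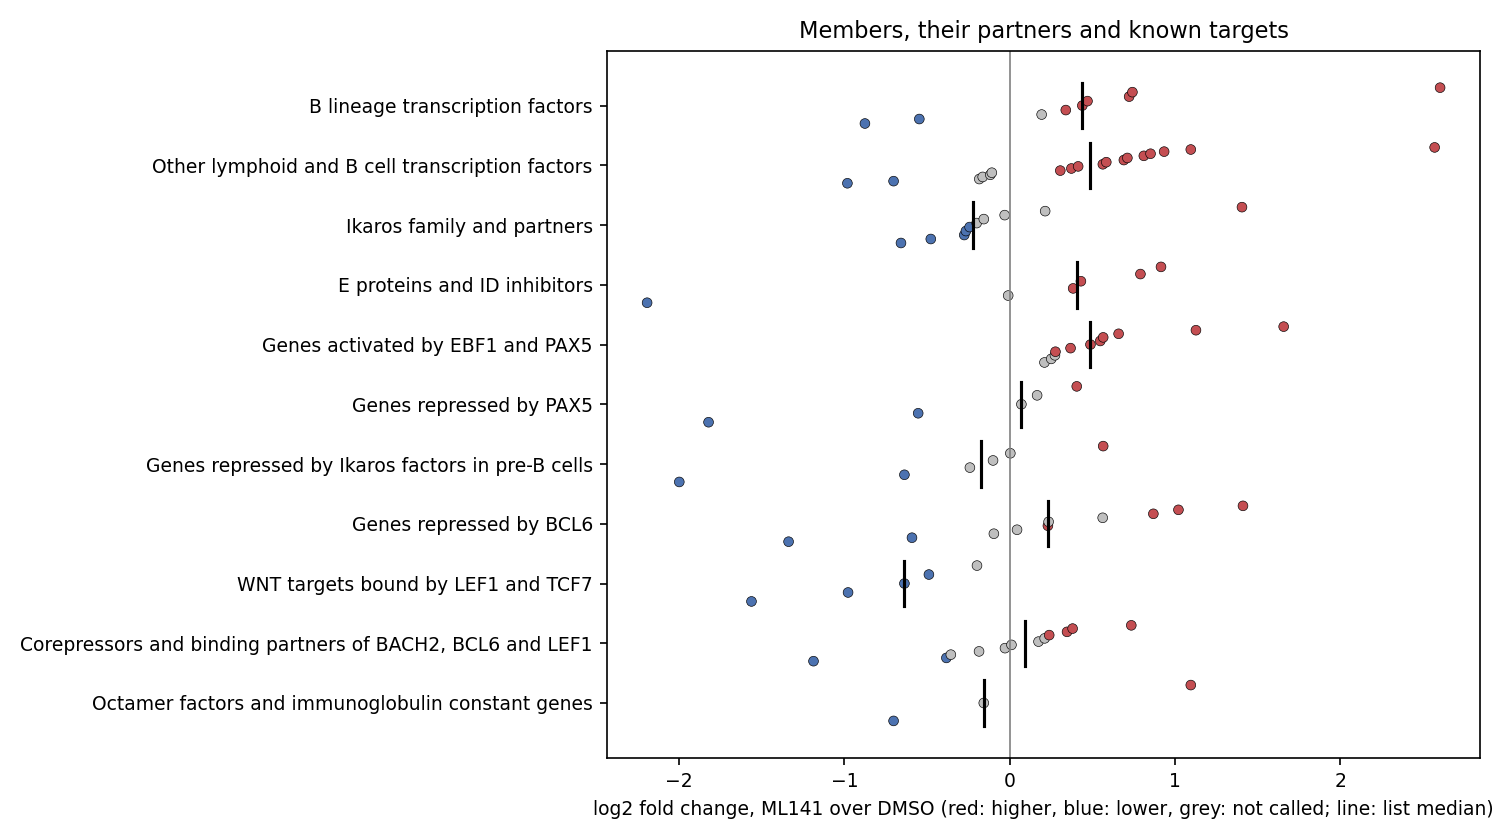
Log2 fold change with ML141 of each tested gene (1 point) in the members' list and in the lists of partners and known targets on the y axis, with red for higher, blue for lower, grey for not called and a black line at the list median. The median is 0.49 for genes activated by EBF1 and PAX5 and -0.64 for WNT targets, against 0.02 for all tested genes.

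The tested genes most like PAX5 and IKZF1 over the 6 libraries were found among 9682 other genes whose mean was 5 CPM or more. The nearest to PAX5 were TBC1D16, SLC38A7 and ZNF446, with Pearson r of log2 CPM from 0.9982 to 0.9988. The nearest to IKZF1 were DGKH, AMD1 and BAG1, with r from 0.9985 to 0.9993. With 2 groups of 3 libraries such values are common: 708 genes had r above 0.95 with PAX5 and 1384 with IKZF1. The libraries share treatment and scaling, so these values only describe the pattern.

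**Figure D5:**
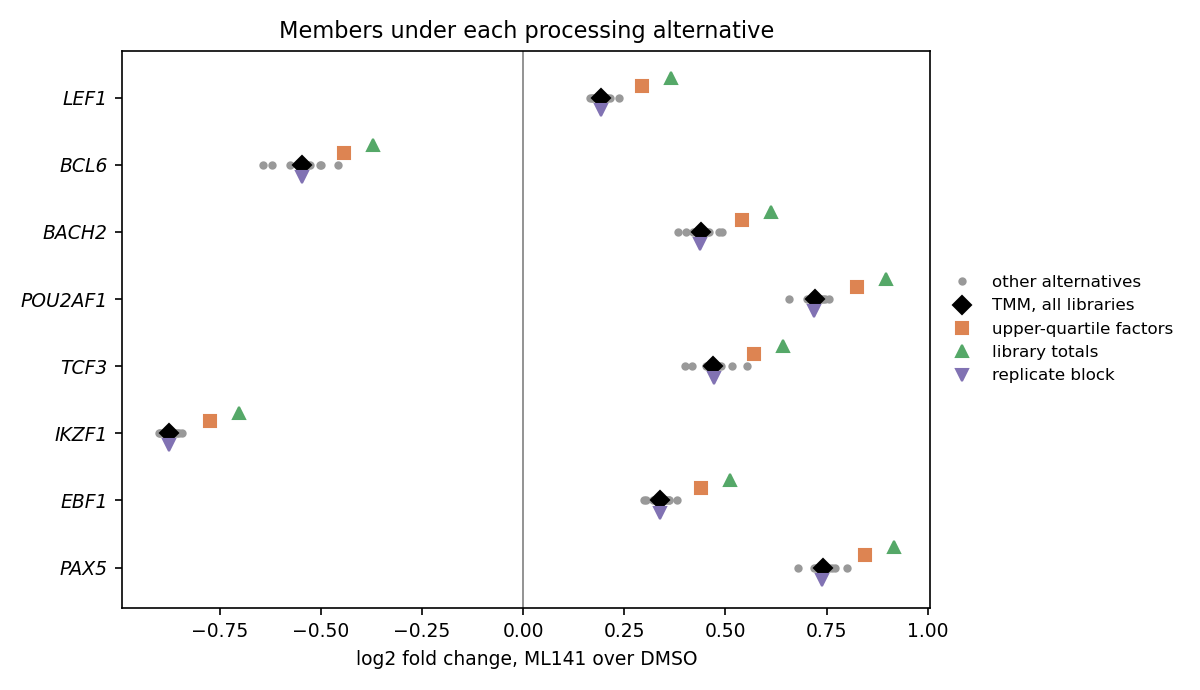
Log2 fold change of 8 members (PRDM1 left out for its size) under every processing alternative, with black diamonds for TMM scaling of all libraries. Upper-quartile factors and library totals shift each member to the right, LEF1 from 0.19 to 0.37 and BCL6 from -0.55 to -0.37, and no member changes sign.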

How the data were processed

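Total RNA of 6 REH samples (3 DMSO, 3 ML141) was extracted with an RNeasy kit and sequenced from TruSeq RNA libraries, per the labels' protocols. The authors deposited raw counts for each gene symbol. Per the submitters' processing notes bcl2fastq 2.19, Trimmomatic, Bowtie2, Picard, featureCounts, DESeq2 and build hg38 were used, but which tool did what, with which settings and strand option, is not stated there. The authors also deposited normalised scores, a fold ratio, a log2 fold change and a p-value per gene. The scores were not used, and the others only where named.

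Genes were kept with filterByExpr (minimum count 10, minimum total 15), scaled by TMM and tested with edgeR 4.0.16 in R 4.3.3 (glmQLFit, glmQLFTest, group as the only term, 2-sided, Benjamini-Hochberg over all genes tested). SE is the size of the log2 fold change over the square root of F. Intervals and limits cover counting error only. Ratios of members were tested by exact permutation. Positions and lengths are from GENCODE 29 (GRCh38). The kit does not mark strand, so reads of overlapping antisense genes cannot be told apart: shared exon bases are 7.85% and 4.22% for BCL6 (AC072022.2, AC072022.1), 6.65% for LEF1 (LEF1-AS1), 4.27% for BACH2, 1.35% for IKZF1 and 0.929% for PAX5. Libraries of a group differed by more than sampling noise (chi-square per degree of freedom 2.9 to 18.4).

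All 10 members are described. From each list the text names at most 2 genes per direction, by smallest p, and a few others chosen after their values were seen. These others include VPREB1, TCF7, TCF4, TCF12, LMO2, IKZF4, IKZF5, AXIN2, RNF43 and those in the marker paragraphs. The members and lists were chosen with earlier results of these data known. Alternatives were other scaling, filters and tests (DESeq2 1.42.0, limma-voom 3.58.1), a replicate block and leaving out each library.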

Additional observations from a re-analysis of the deposited data

How the results depend on the processing

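PAX5, EBF1, IKZF1, TCF3, POU2AF1, BACH2 and BCL6 kept direction and call in all 14 alternatives, and PRDM1 in the 13 that tested it. LEF1 passed, at log2 0.29 with upper-quartile factors, 0.37 with library totals, 0.21 without a low-count filter, 0.21 with the stricter filter, 0.19 with the DESeq2 Wald test, 0.19 with limma-voom and 0.19 with the replicate block. Leaving out 1 library gave LEF1 0.16 to 0.24, and it passed only without ML141 replicate 3 (edgeR adjusted p = 0.0449). Between 8 and 10 members passed, 10 with no filter. The median over all tested genes went from 0.02 (log2, TMM) to 0.12 (upper-quartile) and 0.19 (library totals), and the share of higher calls from 49.1% to 59.5% and 66.1%.

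Same-numbered libraries share a name part in the submitters' descriptions, whose meaning is not stated, and the numbers were not taken as pairs. Deviations of same-numbered libraries from their group means correlated at 0.37, 0.08 and 0.18 over genes. For differently numbered libraries the correlations were -0.05, -0.37, -0.33, -0.14 and -0.03, and 0.29 for DMSO replicate 3 with ML141 replicate 2. Whether the numbers mark pairs was not tested. The replicate block gave 6979 changed genes against 6230 and added LEF1 to the members that passed. Within-library ratios kept their sign in every alternative, and an exact sign-flip test over 3 pairs cannot go below p = 0.25. Depth limits IKZF3 and PRDM1, with 10 counts each in DMSO.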

Other observations

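Several genes tied to a B cell stage or another lineage had almost no reads in REH cells of either group. Of the 138 genes on the partner, target and marker lists, 47 did not pass the low-count filter, 17 had no count in any library and 28 had at most 3 counts in total. They included VPREB1 (1 count in the 6 libraries), MS4A1, which encodes CD20 (2 counts), the progenitor antigen gene CD34 (7 counts), the interferon regulatory factor gene IRF8 (9 counts) and ID1 (13 counts). ID4 and CDKN2A had no count. IGLL1, whose protein pairs with that of VPREB1, had 5377 counts in DMSO and 10114 in ML141. These genes were picked after their values were seen.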
